A study of Rattus norvegicus with 2 samples.

Results

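The circadian clock genes of acetabular cartilage were examined in RNA-seq libraries of 3-week-old Wistar rats. The members were the 10 genes Arntl, Clock, Per1, Per2, Per3, Cry1, Nr1d1, Nr1d2, Dbp and Tef, taken by gene symbol, and each was found among the 17337 genes of the table. The DA-DDH rats, a model of developmental dysplasia of the hip by disarticulation, were swaddled for the first 10 days after birth with the hip adducted and extended and the knee extended, and then moved freely. The control rats were never restrained. The DA-DDH library was made from the pooled RNA of 5 rats and the control library from that of 4 rats, so no difference between the conditions has a replicate check and no test of the conditions was made. The study did not evaluate sex, and no source used here gives the time of day of the harvest.

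The circadian clock is a feedback loop of transcription that runs in most cells, chondrocytes included. The proteins CLOCK and BMAL1, the product of Arntl, bind E-box sequences as a dimer and activate the Per and Cry genes, whose products return to the nucleus and repress that dimer. The same dimer activates Nr1d1 and Nr1d2, whose products, the REV-ERB receptors, bind RORE sequences and repress Arntl, and it activates Dbp, which together with its relative Tef acts on D-box sequences of output genes. Through this wiring Arntl and the Nr1d, Per and Dbp transcripts peak at different times of day. Arntl and Clock are therefore set here against the Per, Nr1d and Dbp genes as 2 arms, with Cry1 and Tef given beside them.

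The promoters of an activator, of a receptor gene whose product represses it and of a period gene are printed to show the letters of the motifs named above, and were chosen among the windows that held a match. RefSeq promoter windows of the rat build GRCr8 were matched for 9 of the 10 members. Cry1 was not matched. The 250 bases before the start are given 5′ to 3′, and capitals mark the motifs searched on both strands, the E-box CACGTG, the E′-box CACGTT, the D-box forms TTATGTAA and TTACGTAA, the RORE core TAGGTCA and the CRE TGACGTCA, of which no letters overlapped here.
Arntl (Bmal1 in RefSeq, chr1:176766078-176766327, plus strand): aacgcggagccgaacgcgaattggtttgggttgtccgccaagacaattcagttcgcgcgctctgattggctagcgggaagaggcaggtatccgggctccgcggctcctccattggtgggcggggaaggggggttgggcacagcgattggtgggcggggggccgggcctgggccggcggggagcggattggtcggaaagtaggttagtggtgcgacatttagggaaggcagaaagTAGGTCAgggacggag
Nr1d1 (the downstream of its windows, chr10:84229455-84229704, minus strand): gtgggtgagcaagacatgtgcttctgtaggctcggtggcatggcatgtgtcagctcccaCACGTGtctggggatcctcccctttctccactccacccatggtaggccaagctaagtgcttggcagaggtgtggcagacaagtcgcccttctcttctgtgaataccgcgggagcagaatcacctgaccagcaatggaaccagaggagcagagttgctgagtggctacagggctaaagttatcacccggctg
Per2 (chr9:99496994-99497243, minus strand): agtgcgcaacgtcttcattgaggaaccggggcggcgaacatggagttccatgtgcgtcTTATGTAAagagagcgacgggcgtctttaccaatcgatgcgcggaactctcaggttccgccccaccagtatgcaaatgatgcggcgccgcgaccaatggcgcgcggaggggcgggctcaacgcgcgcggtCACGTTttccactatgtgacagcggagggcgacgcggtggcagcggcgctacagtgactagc
In the window of Arntl the RORE core lay 16 to 10 bases before the start, and 2.26% of all 33469 windows of this length held that motif. In the window of Nr1d1 the E-box lay 191 to 186 bases before the start, a motif held by 5.59% of windows. In the window of Per2 the E′-box lay 62 to 57 bases and a D-box, TTATGTAA, 192 to 185 bases before the start, motifs held by 4.07% and 0.828% of windows. The other form of the D-box, TTACGTAA, was in 0.108% and the CRE in 1.59% of all windows, and neither was in a window of a member. Besides these, Tef had an E-box and the upstream window of Nr1d1 an E′-box on the opposite strand, and 4 members had a match in all. Clock, Per1, Per3, Nr1d2 and Dbp had none in these windows. A match describes letters and not binding.

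The DA-DDH library held 833869 reads and the control library 796723, recovered from the deposited values as described in the processing section. The type II collagen gene Col2a1 took 11.4% of the DA-DDH reads and 29.3% of the control reads, so ratios were taken after TMM scaling, which leaves out the most extreme genes. Scaling by total reads would move every log2 ratio up by 0.43. All ratios are log2 ratios of DA-DDH over control, and each interval is a 95% exact interval that covers counting error only. All 11 chondrocyte markers were below 0 in log2 ratio (median -1.42), with summed reads of 119469 in the DA-DDH and 274414 in the control library and none at 0. In contrast, 10 of 11 skeletal muscle markers (summed reads 2410 in the DA-DDH and 791 in the control library) and all 9 endothelial markers (1253 in the DA-DDH and 418 in the control library) were above 0, with Tnni2 the muscle marker below. Of 8 fibroblast markers 7 were above 0 (33612 reads in the DA-DDH and 15862 in the control library), with Fap below, and of 8 macrophage markers the 4 with at least 30 reads in 1 of the libraries were above 0 (569 reads in the DA-DDH and 154 in the control library for all 8). None of the muscle, endothelial, fibroblast, macrophage, adipocyte or erythroid markers found in the table was at 0 in both libraries. Adipocyte markers had 3 of 3 at that level above 0 (245 reads in the DA-DDH and 97 in the control library) and erythroid markers 2 of 2 below 0 (137 in the DA-DDH and 156 in the control library). Cd14, Mrc1, Csf1r, Plin1 and Lpl reached 30 reads in the DA-DDH library alone, and Slc4a1 in the control library alone. For these genes the limit of 30 reads itself favours the direction counted. Neuron markers had 4 reads in the DA-DDH and 2 in the control library, with Rbfox3 and Syt1 at 0. The part of these markers in the ratios of the clock genes was not tested, and in tissue of mixed cells fewer cells of a type and less RNA per cell cannot be told apart.

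The clock was read from few fragments. The 10 members together had 930 reads in the DA-DDH library and 761 in the control library. Per unit of gene length, taken as the union of the listed exons, the receptor gene Nr1d1, the output gene Dbp and Per3 were the highest members in both libraries. In the DA-DDH library Dbp stood at 81.0 RPKM (reads scaled to gene length and library size, counting interval 67.7 to 96.2). It lay above Nr1d1 at 51.5 (43.0 to 61.3) and Per3 at 49.6 (42.4 to 57.7), which overlapped each other. In the control library Nr1d1 stood at 87.9 (74.6 to 102.9), Dbp at 76.3 (61.1 to 94.1) and Per3 at 68.1 (58.1 to 79.4), and neighbours in this order overlapped. Nr1d2, Per1, Per2 and Tef followed, at 19.1 to 24.5 in the DA-DDH and 17.4 to 27.3 in the control library, and each overlapped its neighbour. Clock stood at 9.68 in the DA-DDH and 8.92 in the control library, below all of these. At the low end were Cry1, at 7.08 in the DA-DDH and 2.99 in the control library, and Arntl, at 6.95 in the DA-DDH and 1.95 in the control library, and these overlapped each other in both libraries. The interval of Clock in the DA-DDH library, 7.76 to 11.9, overlapped those of Cry1 (4.32 to 10.9) and Arntl (4.24 to 10.7). In the control library Clock did not overlap them.

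**Figure D1:**
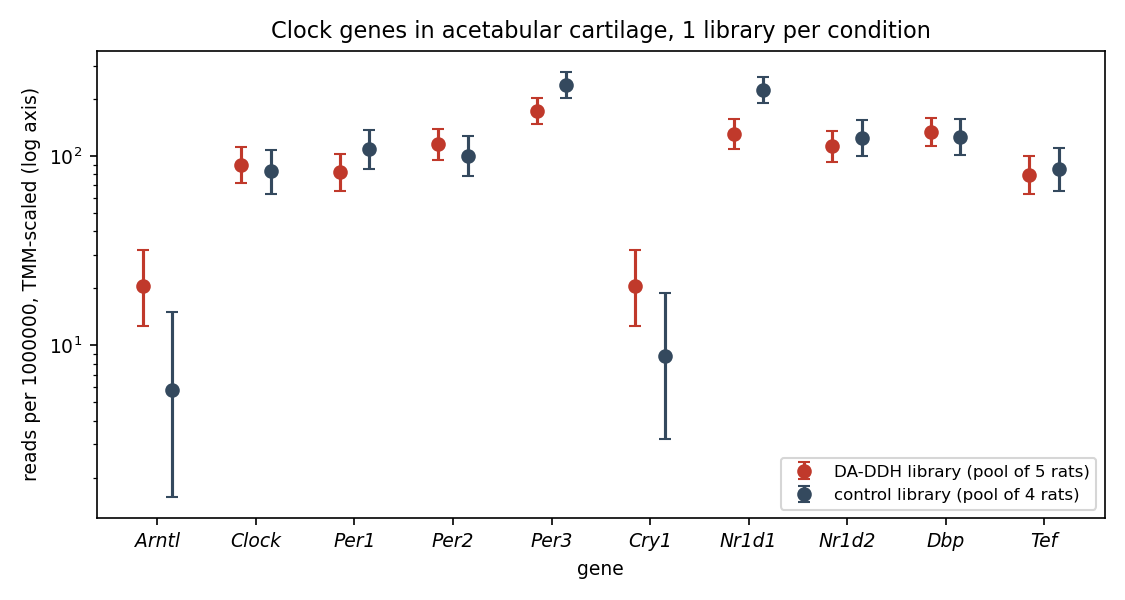
Reads scaled to library size after TMM scaling (reads per 1000000, log axis) for each of the 10 clock genes, with the DA-DDH library in red on the left and the control library in dark blue on the right of each gene, and bars for 95% exact Poisson intervals. Nr1d1 stood at 131.4 in the DA-DDH library and 224.1 in the control library, with intervals that do not overlap on this scale. With total-count scaling the interval of its log2 ratio, -0.69 to 0.0045, holds 0. The share of all genes whose intervals do not overlap was not computed. Arntl and Cry1 stood far below the other genes in both libraries in these reads, which are not scaled to gene length.

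Among the activators, Arntl was higher in the DA-DDH library, on few reads. Arntl, the partner that gives the dimer its rhythm, lies on the plus strand of chromosome 1 of rn6 from 178039063 to 178137471, with 21 annotated exons. It had 20 reads in the DA-DDH library and 4 in the control library, for which exact Poisson intervals are 12.2 to 30.9 and 1.09 to 10.2 reads. Its log2 ratio was 1.70 with an interval from 0.25 to 3.84, so that the counts allow anything from a small difference to a large one. Clock, on the plus strand of chromosome 14 from 34455934 to 34502218, had 87 reads in the DA-DDH library and 57 in the control library. Its log2 ratio was 0.11 (interval -0.38 to 0.63), within counting error of 0 on the TMM scale, and 0.54 (0.05 to 1.05) with total-count scaling. The ratio of Arntl exceeded that of Clock by 1.58 (interval 0.02 to 3.78), the lower bound of which is close to 0.

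The period genes, the negative limb of the loop, had ratios from -0.46 to 0.20. Per1, whose transcription also answers to cAMP and glucocorticoid signals, had 80 reads in the DA-DDH library and 75 in the control library, a log2 ratio of -0.40 (interval -0.87 to 0.08). Per2, a period gene whose mutation disturbs rhythms in mice, had 112 reads in the DA-DDH library and 69 in the control library, a ratio of 0.20 (-0.24 to 0.66). Both lay within counting error of 0 on the TMM scale, and with total-count scaling Per2 was at 0.63 (0.19 to 1.09). Per3, on the minus strand of chromosome 5 from 168088126 to 168123030, had 168 reads in the DA-DDH library and 164 in the control library. Its ratio of -0.46 (interval -0.78 to -0.14) was lower on the TMM scale and lay at -0.03 with total-count scaling. Per2 exceeded Per3 by 0.66 (interval 0.11 to 1.22), a difference that no scaling can alter. The interval of that difference widened to cover all 45 pairs of members, -0.24 to 1.58, held 0. The summed Per reads, 360 in the DA-DDH and 308 in the control library, gave -0.27 (interval -0.49 to -0.04), which turned to 0.16 with total-count scaling. Cry1, the partner of the PER proteins in repression, had 20 reads in the DA-DDH library and 6 in the control library, a ratio of 1.17 whose interval, -0.12 to 2.85, holds 0. With total-count scaling the ratio of Cry1 was 1.59 (0.30 to 3.28).

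Of the REV-ERB genes, Nr1d1 was lower in the DA-DDH library on the TMM scale and Nr1d2 lay within counting error of 0. Nr1d1 encodes REV-ERBα and lies on the minus strand of chromosome 10 from 86683875 to 86690815. It had 127 reads in the DA-DDH library and 154 in the control library, although the DA-DDH library was the deeper, and its log2 ratio of -0.77 (interval -1.12 to -0.42) corresponds to a level 1.70-fold lower. With total-count scaling the ratio was -0.34, with an interval from -0.69 to 0.0045 that holds 0. Of the 4375 genes that reached a floor of 30 reads in at least 1 library, 5.99% had a lower ratio. Nr1d1 was the member with exons over another gene. Its exons share 263 bases with those of Thra, which encodes a thyroid hormone receptor on the opposite strand, and no source used here says whether the counting used the strand. Thra had 111 reads in the DA-DDH library and 71 in the control library, a ratio of 0.15 (interval -0.29 to 0.60). Nr1d2, which encodes REV-ERBβ, had 109 reads in the DA-DDH library and 86 in the control library, a ratio of -0.15 (-0.57 to 0.27). Nr1d2 exceeded Nr1d1 by 0.62 (interval 0.07 to 1.17). The interval widened to cover all 45 pairs of members, -0.28 to 1.53, held 0.

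The PAR bZIP output genes lay within counting error of 0 on the TMM scale. Dbp had 130 reads in the DA-DDH library and 87 in the control library, a log2 ratio of 0.08 (interval -0.32 to 0.50). With total-count scaling it was at 0.51 (interval 0.11 to 0.92), so that its distance from 0 hangs on the scaling. Tef had 77 reads in the DA-DDH library and 59 in the control library, a ratio of -0.11 (-0.62 to 0.41). Dbp lay 0.85 above Nr1d1 (interval 0.32 to 1.40, or -0.02 to 1.75 widened to cover all 45 pairs of members). Both are direct targets of the same dimer.

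**Figure D2:**
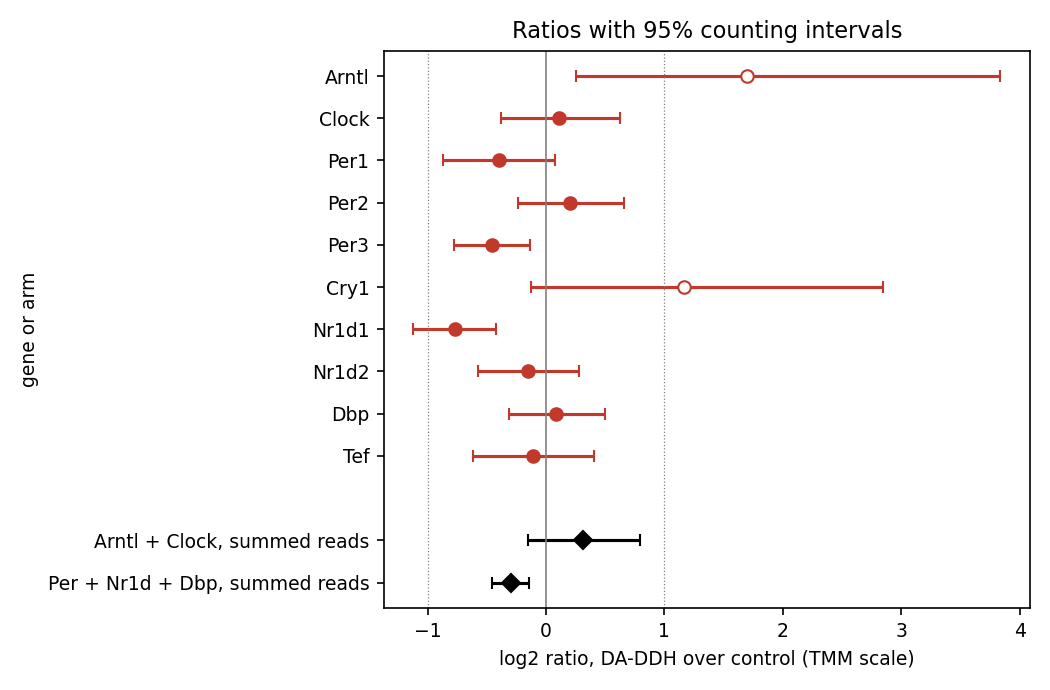
Log2 ratios of DA-DDH over control on the TMM scale for the 10 genes (circles) and for the summed reads of each arm (diamonds), with 95% exact intervals for counting error, a solid line at 0 and dotted lines at 2-fold. Open circles are the genes under 30 reads in both libraries, Arntl and Cry1, and the intervals of Per3, Nr1d1, Arntl and the summed Per, Nr1d and Dbp reads do not hold 0, of which the last turns from -0.30 to 0.13 with total-count scaling.

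Of the 10 members, 8 reached the floor of 30 reads. None of these 8 was over 2-fold in either direction, where 4.71% of all 4375 genes at that floor were over 2-fold higher and 3.06% over 2-fold lower in the DA-DDH library. That split of all genes, 206 higher and 134 lower, is 60.6% higher, against 93.1% with total-count scaling (638 higher and 47 lower) and 76.0% as ratios to Gapdh (298 higher and 94 lower). The counting interval lay below 0 for 2 of the 8 members, Per3 and Nr1d1, and above 0 for none, where it lay below 0 for 14.1% and above 0 for 13.8% of all genes at the floor. The median ratio of the 8 members was -0.13, with 5 of 8 below 0, beside a median of 0.03 and 47.6% below 0 over all genes at the floor. With a floor of 10 reads all 10 members were kept, and Arntl and Cry1 were over 2-fold higher, where 8.72% of the 7892 genes at this lower floor were over 2-fold higher. Arntl and Cry1 reached this floor in the DA-DDH library alone, so the floor itself favours the direction counted.

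Genes with like numbers of reads give a scale for these ratios. The 8 members had 136 to 332 reads in both libraries together, as had 1161 genes of the table. The quartiles of their ratios were -0.28 and 0.24, and 5 of the 8 members lay between these. The 5th and 95th percentiles were -0.70 and 0.76, and Nr1d1 was the member outside them, with 3.88% of these genes lower still. Per3 had 14.0% of them below it. For Arntl and Cry1, 355 genes had 24 to 26 reads in both libraries together. Of those genes 12.7% were over 2-fold higher, 3.38% lay at or above Arntl and 8.73% at or above Cry1, and the 95th percentile was 1.36.

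**Figure D3:**
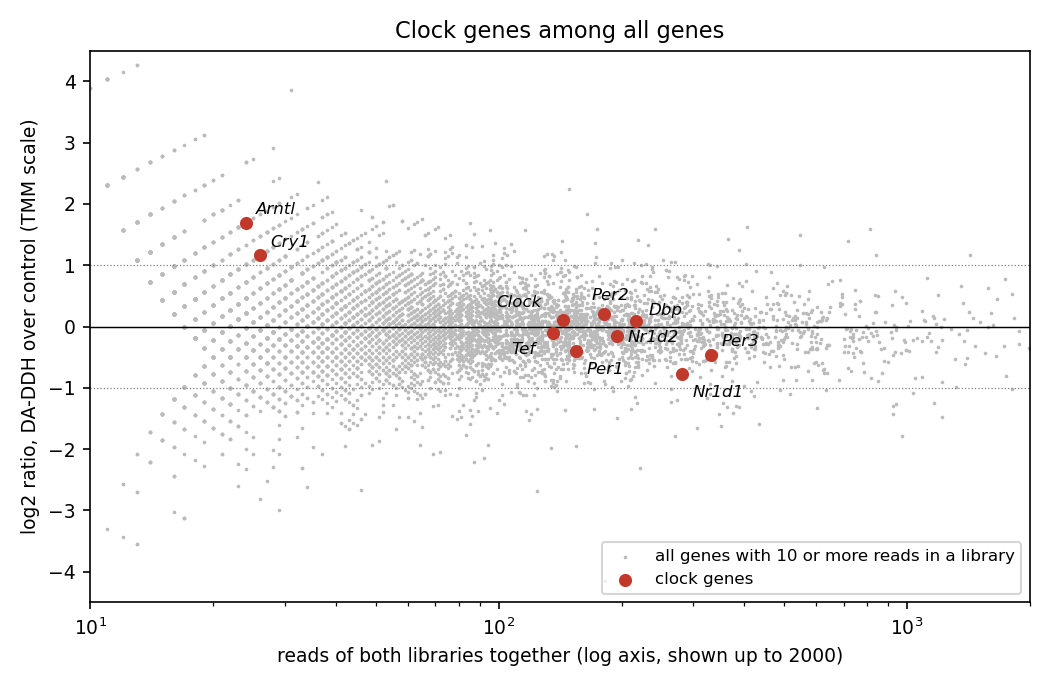
Log2 ratio of DA-DDH over control on the TMM scale against the reads of both libraries together (log axis), with all genes of at least 10 reads in 1 of the libraries in grey, the 10 clock genes in red and dotted lines at 2-fold. Spread narrows with the number of reads, Nr1d1 at -0.77 lies toward the lower edge of genes of its depth, and Arntl at 1.70 toward the upper edge of its own.

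Set against each other, the arms differed in these libraries. Arntl and Clock together had 107 reads in the DA-DDH library and 61 in the control library, a log2 ratio of 0.31 (interval -0.15 to 0.80). Clock gave 87 of these reads in the DA-DDH and 57 in the control library. With total-count scaling the ratio of this arm was 0.74 (0.28 to 1.22). The 6 Per, Nr1d and Dbp genes together had 726 reads in the DA-DDH library and 635 in the control library, a ratio of -0.30 (-0.45 to -0.14) that turned to 0.13 (-0.03 to 0.28) with total-count scaling. The difference between the arms does not depend on library scaling. It was 0.61 on the log2 scale (exact interval of the ratio of ratios 0.12 to 1.12), or 1.53-fold. How often other sets of genes of like depth differ as much was not computed. The difference is therefore not shown to be particular to the clock genes. For each read of the Arntl and Clock arm there were 6.79 reads of the Per, Nr1d and Dbp arm in the DA-DDH library and 10.4 in the control library.

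The difference was smaller without Arntl or without Nr1d1. Without Arntl it was 0.41 with an interval from -0.11 to 0.95, and without Nr1d1 it was 0.49 with an interval from -0.01 to 1.01, so that in both cases the interval held 0. Without any 1 of Per1, Per2, Per3, Nr1d2 or Dbp the difference lay between 0.56 and 0.69, and the interval stayed above 0. Without Clock it was 1.99 (0.54 to 4.14) and rested on the 24 reads of Arntl. Adding Tef to the second arm gave 0.60, and adding Tef and Cry1 gave 0.57. Arntl and Nr1d1 had the highest and lowest ratios of the 10 members, so their contrast was the widest of all 45 pairs by construction. There were 6.35 reads of Nr1d1 for each read of Arntl in the DA-DDH library and 38.5 in the control library. That is a difference of 2.46 (interval 0.96 to 4.64, or 0.13 to 6.25 widened to cover all pairs). Clock also exceeded Nr1d1, by 0.88 (0.27 to 1.51, widened -0.11 to 1.91), but exceeded the summed Per genes by only 0.38 (-0.17 to 0.94).

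**Figure D4:**
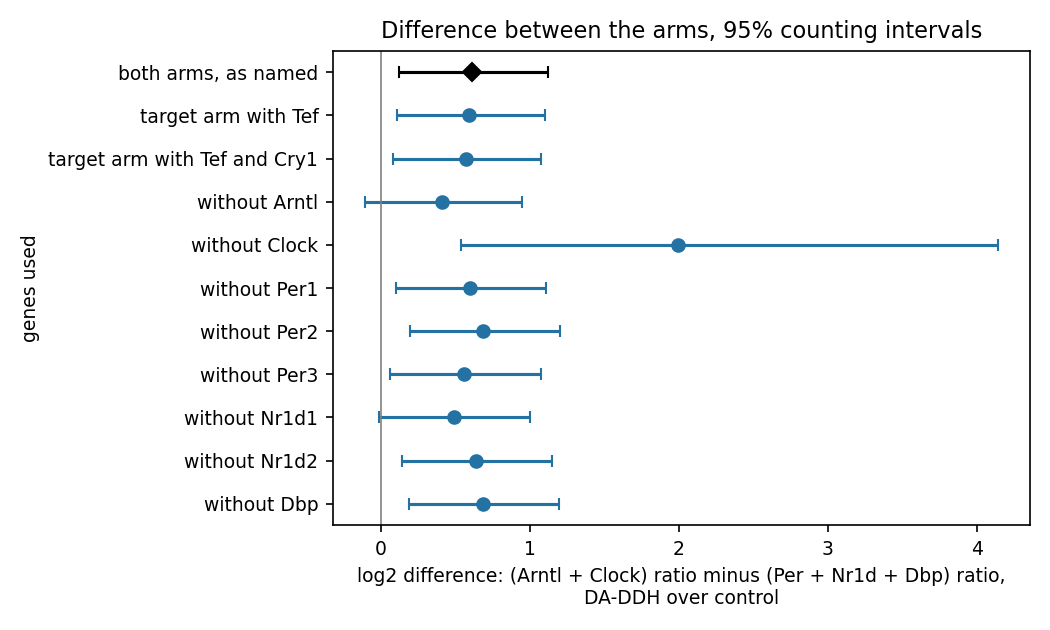
Difference in log2 ratio (DA-DDH over control) between the Arntl and Clock arm and the Per, Nr1d and Dbp arm, with 95% exact intervals for counting error, for both arms as named (diamond), with Tef or Tef and Cry1 added, and without each gene in turn. The difference of 0.61 stays above 0 in all settings, and its interval reaches below 0 without Arntl and without Nr1d1.

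Over all 45 pairs of members, the ratios differed beyond their counting interval in 17, and in 2 once intervals were widened to cover all 45 pairs. Those were Arntl over Nr1d1 and Per2 over Nr1d1, the second at 0.97 (95% interval 0.40 to 1.55). Among the 28 pairs of the 8 members with at least 30 reads, 7 differed, and in each the lower gene was Nr1d1 or Per3. The share of differing pairs among other genes was not computed, so these counts are not shown to be particular to the clock genes. Of all single genes at the floor, 13.8% had an interval above 0 and 14.1% below 0. The makeup of the clock reads is free of scaling as well. Nr1d1 made up 13.7% of them in the DA-DDH library (exact binomial interval 11.5 to 16.0) and 20.2% in the control library (17.4 to 23.3), and the intervals of the other 9 members overlapped between the libraries. No such comparison was made within other sets of genes. Arntl made up 2.15% (1.32 to 3.30) in the DA-DDH and 0.53% (0.14 to 1.34) in the control library.

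Other genes of the clock were mixed as well. Of 18 listed, 13 were found by symbol and 6 reached the floor, 3 of them above 0 and 3 below (5 and 1 with total-count scaling), with a median of -0.09 beside 0.03 over all genes at the floor. Cry2, the second cryptochrome, had 143 reads in the DA-DDH library and 92 in the control library, a log2 ratio of 0.14 (interval -0.24 to 0.54). Bhlhe40, which encodes the E-box repressor DEC1, had 154 reads in the DA-DDH and 144 in the control library and, like Per3, was lower at -0.40 (-0.73 to -0.06) on the TMM scale and at 0.03 with total-count scaling. Of the genes that act on PER, the kinase gene Csnk1d was at 0.48 (-0.09 to 1.09) and Fbxw11, of a ubiquitin ligase, at -0.32 (-0.98 to 0.36). Timeless, known in mammals chiefly for its part at replication forks, had 43 reads in the DA-DDH library and 9 in the control library. At 1.70 (0.71 to 2.99), it was the sole one of the 6 genes at the floor over 2-fold. It reached the floor in the DA-DDH library alone, and 4.71% of all genes at the floor were over 2-fold higher. The Arntl paralog Arntl2 had 7 reads in the DA-DDH and 1 in the control library, and the Clock paralog Npas2 14 in the DA-DDH and 8 in the control library, too few to place either.

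Genes downstream of the clock or sharing its inputs were compared on the same scale. Of 7 output genes 3 had at least 30 reads, and all intervals held 0. These were Klf10 at 0.16, Por at 0.06 and Alas1 at -0.39. Of 10 glucocorticoid-responsive genes 6 had at least 30 reads, with a median of -0.14, 3 above and 3 below 0 (4 and 2 with total-count scaling). Sgk1, a kinase gene, was higher at 0.66 (interval 0.10 to 1.26) with 85 reads in the DA-DDH and 38 in the control library, and Dusp1, of a MAP kinase phosphatase, was lower at -0.81 (-1.27 to -0.35). Klf9 was at -0.54 and Ddit4 at -0.36, and both intervals hold 0. The immediate early genes, which answer some of the same signals as Per1, had all 9 members with at least 30 reads below 0, from -4.14 for Fosb to -0.61 for Nr4a1, with a median of -1.93. Fosb, Btg2, Zfp36 and Ier2 reached 30 reads in the control library alone. Under the floor were Atf3 at -0.39 (interval -1.58 to 0.82) and Sik1 at 0.32 (-0.65 to 1.40). Per1, at -0.40, lay closer to 0 than any of the 9 at the floor and level with Atf3. Of 8 reference genes 7 had at least 30 reads, from -0.33 for Rpl13a to 0.52 for B2m. Of the 8 clock genes at the floor, Per1, Per3 and Nr1d1 lay below that span and the others within it.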

How the data were processed

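RNA-seq was done on acetabular cartilage, with 1 library from the RNA of 5 DA-DDH rats and 1 from that of 4 control rats. The authors deposited 1 table of 17337 genes with exon coordinates on rn6, gene length and, per library, a normalized signal. TopHat and Cufflinks are named in the submitters' processing notes without versions, and the counting tool and its use of strand are not given in the sources used here. The table's columns of the authors' fold change, p-value, q-value, rank and call were not used. The methods and the labels name different library kits, the first for mRNA and the second for total RNA.

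The deposited signal held counts multiplied by a factor per library. Division by the smallest positive value gave whole reads for 100% of genes in both libraries (relative tolerance 1e-06), with 1 read worth 0.855 in the DA-DDH and 1.20 in the control library. The deposited gene length, used as other information, equalled the union of the listed exons for all 17337 genes. With 1 library per condition a count test has no residual degrees of freedom, so no p-values are given.

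Log2 ratios were taken after TMM scaling (edgeR 4.0.16, R 4.3.3; factors 1.16 and 0.863) with a prior of 0.5 reads. Intervals are 95% exact conditional binomial (Clopper-Pearson), exact Poisson for single counts, and exact conditional for ratios of ratios, where 99.9% intervals cover the 45 pairs. They cover counting error only, and reads without molecular identifiers are not independent molecules. The floor was 30 reads in at least 1 library, and called means past 2-fold. Named were all 10 members, the other clock genes at the floor and up to 4 genes of each further list with the largest absolute ratio. Arntl2, Npas2, Por, Alas1, Thra, Tnni2, Fap, Nr4a1, Ier2, Atf3 and Sik1 were named besides, after their values were seen. The members and lists were chosen with earlier results of these data known. Other scalings, priors, floors, thresholds and gene sets of the arms were tried. Interval coverage was tested on simulated Poisson counts, at read totals above those of Arntl and Cry1. Such counts hold no spread between animals, so this test could not check the intervals for that spread. Promoters are from RefSeq (GRCr8), matched by symbol or synonym. Python 3.11.15, scipy 1.17.1, numpy 2.4.6, pandas 2.3.3 and matplotlib 3.10.9 were used. Of the other clock genes counted, 1 is not reported here by name or value.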

Additional observations from a re-analysis of the deposited data

How the results depend on the processing

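Of 70 values of single members under other scalings and priors, 67 stayed within the main counting interval. The other 3, Per3 at -0.03, Dbp at 0.51 and Nr1d1 at -0.34, were with total-count scaling. For Per2, Dbp, Clock and Cry1 the interval held 0 with TMM and lay above 0 with total-count scaling. That scaling turned the sign of the summed Per, Nr1d and Dbp arm, to 0.13, and left 8 of 10 members above 0, against 5 of 10 with TMM. Median-of-ratios and upper-quartile scaling, ratios to Gapdh and the deposited values themselves kept the sign of both arms. The count of members over 2-fold was 0 with the floor of 30 reads, 2 with a floor of 10 reads or none, and 1 at a threshold of 1.5-fold (Nr1d1, lower). The difference between the arms was 1.99 without Clock, 1.18 as a difference of the medians of the genes and 1.15 as a difference of their means, where Arntl weighs as much as Clock. Depth limits Arntl and Cry1, at 24 and 26 reads in all. No paired analysis was possible because each condition had 1 library.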
